A study of Mus musculus with 12 samples.

Results

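Oct4 knockdown was examined in primary MASMC, smooth muscle cells of the mouse aorta, that had been exposed to the oxidized phospholipid POVPC. Of the 12 small RNA arrays of the series, 6 carried RNA of POVPC-treated cells, and they were chosen by the treatment in the source name of each sample. On 3 of them the cells had been transfected with siRNA against Oct4 (siOCT4-POVPC), and on the other 3 with pooled siRNA that has no target (siNT-POVPC). Transfection lasted 48 h and was followed by 24 h with 10 μg/mL POVPC in both groups. The labels name no other allele or agent in either group, and give neither the strain nor the age of the animals. The 6 remaining arrays carried vehicle-treated cells (siNT-DMSO and siOCT4-DMSO, 3 arrays each) and are used beside the results only. The description label of most samples names a single condition for different groups and was not followed.

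OCT4, the product of Pou5f1, is a transcription factor that keeps stem cells pluripotent and has been linked to the change of state of smooth muscle cells in atherosclerosis. POVPC is a phospholipid with a shortened, oxidized side chain that builds up in atherosclerotic lesions. A miRNA is cut from a hairpin as a pair of arms, 5p and 3p, and the seed near its 5′ end guides it to target transcripts. An siRNA is a short RNA duplex of about the same size as a miRNA. The groups therefore differed in the short RNA that was put into the cells as well as in OCT4. In the study's methods the RNA was dephosphorylated and Cy3 dye was ligated to its 3′ end, a step that does not select for miRNAs. Loss of OCT4 and a signal from the transfected siRNA itself cannot be told apart in this design, and the sequences of the siRNAs were not used here. The Oct4 transcript was not analysed here either, and the degree of knockdown is not known from these arrays.

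Slide was also tied to group. Slides were told apart by the scan date in the file headers alone, and arrays with the same scan date are called a slide here. By this rule all 3 siNT-POVPC arrays lay on slide 1 and all 3 siOCT4-POVPC arrays on slide 2. Slide and group therefore cannot be told apart within the 6 arrays. Slide 1 also held the 3 siNT-DMSO arrays and siOCT4-DMSO replicates 1 and 2, which give a knockdown comparison within a single slide. Between 9391 and 10144 small RNA probes were well above background on the siNT-POVPC arrays and between 7706 and 8697 on the siOCT4-POVPC arrays. The siOCT4-DMSO replicate 3 array stood apart, with a median signal before normalization of 24.1 against 5.59 to 8.73 on the other 11. It entered the normalization, the filter for tested probes, the choice of each brightest probe and the fits over all 12 arrays. The main comparison and the one within slide 1 were fitted without it. The labels do not say whether replicates were separate cultures, so p-values measure the spread between these arrays, which may be technical. The smooth muscle miRNAs miR-143-3p and miR-145a-5p, and the miRNAs of endothelium and blood cells that were to be checked beside them, could not be named among the probes, so the cell type was not checked.

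Signals are given as log2 of the quantile-normalized processed signal. Names could be given to 520 miRNA probes of 110 mouse miRNAs, all of which the study had listed as changed in comparisons that use the same arrays. Counts over named miRNAs are therefore not independent evidence. Each miRNA had up to 5 probes. All 520 named probes paired with the 3′ end of their miRNA and carried an added G at the start, and the probes of a miRNA differed in how far they reached towards its 5′ end. Such probes are not independent of each other. A probe was called when its Benjamini-Hochberg adjusted p in limma was under 0.05 and its fold change at least 1.5. A miRNA is listed below as lower or higher when it had at least 3 tested probes and more than 50% of them were called in that direction, and the brightest of its probes stands for it where values are given.

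The sequences of the miRNAs that carried the largest changes are printed first, because what they share and where the probes end is taken up again beside the results. Capitals mark the seed, bases 2 to 8. The miRNAs whose probes were lower after Oct4 knockdown were led by these.
miR-196a-1-3p: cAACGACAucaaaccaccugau
miR-5615-3p: uGUCUCAGaaaacaaccaagga
miR-669c-3p: uACACACAcacacacaaguaaa
miR-669b-3p: cAUAUACAuacacacaaacauau
miR-669m-3p: aUAUACAUccacacaaacauau
miR-8118: gACAAACAugacuaugcugaca
miR-299a-3p: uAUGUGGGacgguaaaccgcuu
miR-7065-5p: aGUGUAGCagguaaaccagga
miR-495-3p: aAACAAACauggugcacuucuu
The miRNAs whose probes were higher were led by these.
miR-485-3p: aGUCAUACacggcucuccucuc
miR-5616-3p: aACUUGUGaugaggugagacag
miR-871-5p: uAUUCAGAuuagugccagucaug
miR-883b-5p: uACUGAGAauggguagcaguca
miR-12204-5p: uUGAGUCUuagaugagug
miR-410-5p: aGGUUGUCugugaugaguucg
miR-6916-5p: cAGGAGGAuggagaugaguca
Sequences came from the study's probe lists. RefSeq's table (GRCm38.p6) held 85 of the 110 miRNAs under the same name, each with an identical sequence. The miR-669 family members shown here were among those not matched. No seed was shared within either direction, with 20 seeds among 20 lower miRNAs and 13 among 13 higher ones.

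In the siOCT4-POVPC vs. siNT-POVPC comparison, 143 of 8621 tested miRNA probes were lower (1.66%) and 87 were higher (1.01%). Without adjustment 965 probes had a p under 0.05. Of the called probes, 64 lower and 18 higher ones changed 4-fold or more as measured, and many of these were near background in 1 of the groups, where only a bound on the fold can be given. Named probes made up 104 of the lower and 63 of the higher calls. The other 63 called miRNA probes, 39 lower and 24 higher, could not be named. Over the 34 of them well above background on all 6 arrays, changes reached -2.33 and 2.35 on the log2 scale. The median change over all tested miRNA probes was 0.02 on the log2 scale. With normexp background correction 50 probes were called, 38 lower and 12 higher. With slide as a block over all 12 arrays 646 were called, 391 lower and 255 higher, in a fit whose slide term rests on siOCT4-DMSO replicate 3. The plot of p-value against change shows both directions for the miRNA and the other probes.

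**Figure D1:**
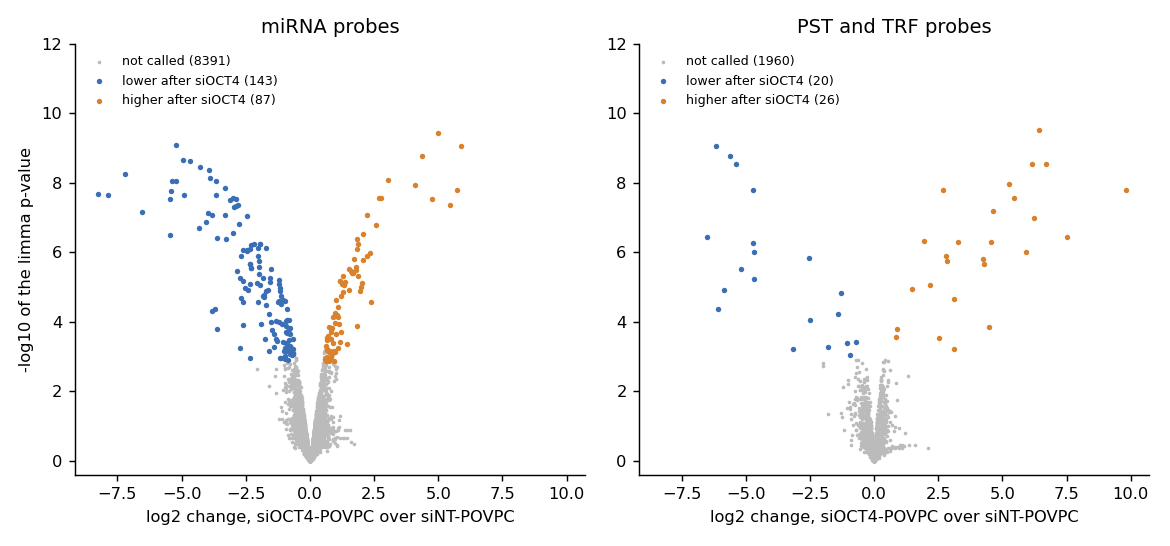
Each point is a probe, with its log2 change in siOCT4-POVPC over siNT-POVPC arrays (3 against 3) on the x axis and −log10 of the limma p-value on the y axis, for miRNA probes (left) and for PST and TRF probes (right). Called probes are coloured, with 143 lower and 87 higher among miRNA probes and 20 lower and 26 higher among the others.

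Of the 110 named miRNAs, 20 were lower and 13 were higher by most of their probes. These 33 became 7 with normexp background correction and 20 with the methods' t-test after adjustment. In 26 others some probes were called but not most of at least 3, and in 51 none was called. The lower miRNAs were miR-196a-1-3p, miR-5615-3p, miR-669c-3p, miR-669b-3p, miR-669m-3p, miR-669a-3-3p, miR-8118, miR-466g, miR-7093-5p, miR-299a-3p, miR-196a-2-3p, miR-669j, miR-6903-5p, miR-7065-5p, miR-466f-3p, miR-6390, miR-466i-3p, miR-466m-3p, miR-495-3p and miR-27b-3p. The higher ones were miR-485-3p, miR-5616-3p, miR-871-5p, miR-883b-5p, miR-12204-5p, miR-3076-5p, miR-410-5p, miR-7675-5p, miR-6916-5p, miR-6950-5p, miR-5626-3p, miR-3086-3p and miR-7670-5p. All tested probes were called in 10 of the lower and 5 of the higher miRNAs. For the brightest probe of each, the 2 groups did not overlap in any of the 33, against 18.7% of all tested miRNA probes. The 33 were selected by calls on these same arrays, which largely fixes this result in advance.

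**Figure D2:**
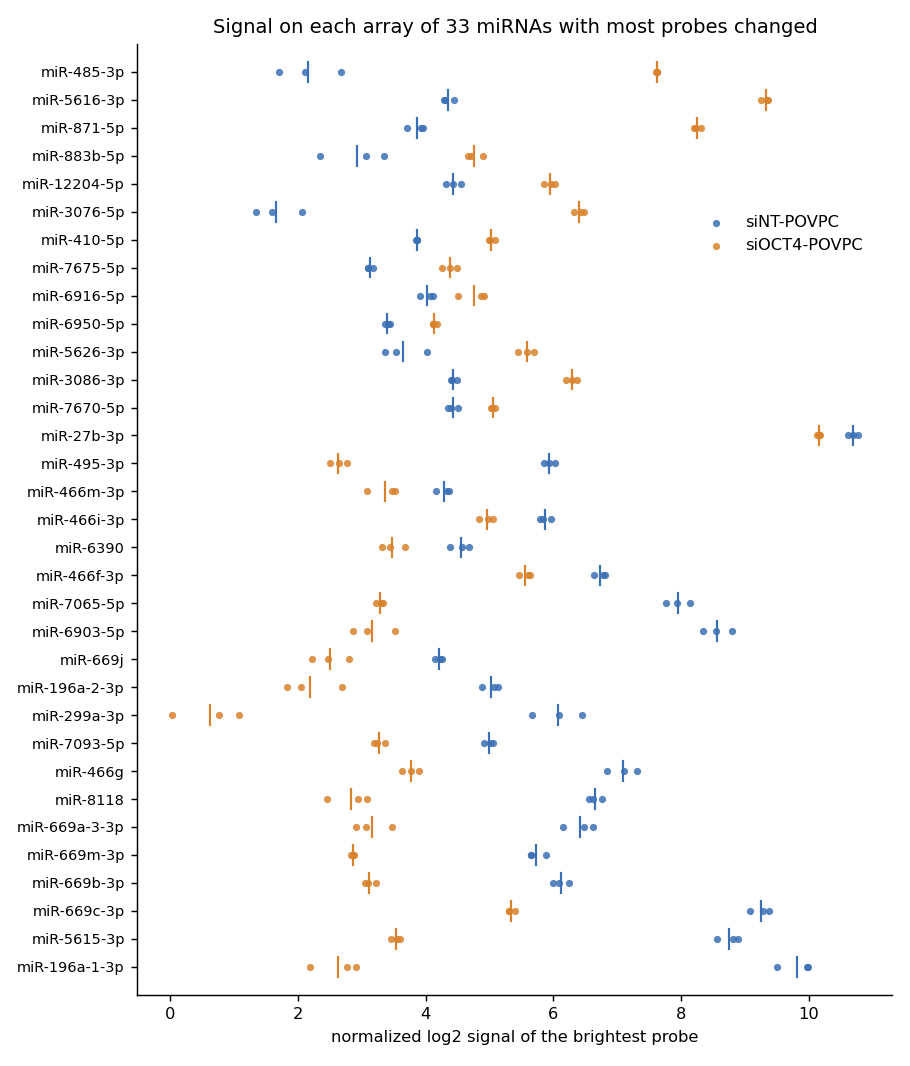
Normalized log2 signal (x axis) of the brightest probe of each of the 33 miRNAs (rows, ordered by median change) on the 3 siNT-POVPC and 3 siOCT4-POVPC arrays, with a point for each array and a line at the group mean. The groups are parted in every row, from 0.54 for miR-27b-3p to 7.19 for miR-196a-1-3p on the log2 scale.

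The HOX cluster miRNA miR-196a-1-3p had the steepest fall. It is the 3p arm of Mir196a-1 (chr11:96265225-96265246, GRCm38.p6, plus strand), a hairpin that lies among the Hoxb genes, and the miR-196 family is known to repress Hox transcripts through its 5p arms. Its brightest probe read 9.99, 9.50 and 9.98 on the siNT-POVPC arrays and 2.91, 2.77 and 2.19 on the siOCT4-POVPC arrays. A single siOCT4-POVPC array had it well above background. It fell by 7.19 on the log2 scale (SE 0.23, limma adjusted p 5.2e-06). All 5 of its probes were called. After knockdown its other 4 probes did not stand well above background on any array, and the falls were at least 32.4-fold for the 17-base, 124-fold for the 18-base, 58.0-fold for the 19-base and 142-fold for the 20-base probe. For such a probe the mean of the brighter group is set against the mean, over the dimmer arrays, of the higher of its own signal and the lowest signal well above background.

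Its relative from the Hoxc genes, miR-196a-2-3p (Mir196a-2, chr15:102973401-102973422, plus strand), was lower by 2 of 3 probes. The brightest read 5.12, 4.89 and 5.07 in siNT-POVPC and 2.05, 1.83 and 2.69 in siOCT4-POVPC, where it was not well above background, and it was at least 4.62-fold lower (adjusted p 0.000366). The probe that was not called changed by 0.20. Both arms of miR-10a, which lies among the Hoxb genes as well, had no called probe among 5 each, with median changes of 0.33 for the 5p arm and -0.29 for the 3p arm. The HOX cluster list thus held 2 lower miRNAs of 4 named, beside 20 of all 110, and all were named through the study's lists of changed miRNAs.

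Outside any list, miR-5615-3p came next in size. Its brightest probe read 8.88, 8.81 and 8.56 in siNT-POVPC against 3.54, 3.45 and 3.59 in siOCT4-POVPC, and was well above background on all 6 arrays. It fell by 5.22 (SE 0.13, limma adjusted p 2.56e-06), and all 5 probes fell by between 3.83 and 5.22. RefSeq places its sequence at 2 loci, of which the first is Mir5615-1 (chr10:81104614-81104635, minus strand). miR-6903-5p and miR-7065-5p fell by about as much on their brightest probes, but by 3 of 5 probes each. The brightest probe of miR-6903-5p read 8.80, 8.54 and 8.34 against 3.52, 3.09 and 2.86. That of miR-7065-5p read 8.14, 7.94 and 7.76 against 3.30, 3.32 and 3.23. Their other probes changed by as little as -0.23 and -0.05, so each call rests on part of the probe set.

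The Sfmbt2 cluster is a large run of repeated hairpins inside an intron of Sfmbt2 on mouse chromosome 2, whose miR-466, miR-467 and miR-669 products are rich in CA repeats. It had 20 named members with 100 probes, of which 51 were lower and none was higher. Of all 520 named probes, themselves listed by the study for a change, 20% were lower and 12.1% higher. These shares include the cluster, whose 51 are among the 104 lower named probes. Most probes were lower in 9 members, some in 9 and none in 2 (miR-467b-3p and miR-466q). The median change over its probes was -0.76, against 0.02 over all tested miRNA probes. Members were taken by name, and RefSeq places 2 of them, miR-466i on chromosome 13 and miR-467g on chromosome 5, outside the run. Near-identical members can bind each other's probes, so the single members are uncertain.

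The member with the largest fall was miR-669c-3p. Its brightest probe read 9.38, 9.28 and 9.08 in siNT-POVPC and 5.31, 5.30 and 5.39 in siOCT4-POVPC. It fell by 3.92 (SE 0.12, limma adjusted p 4.71e-06), and its 5 probes changed by -4.93 to -3.67. miR-669b-3p fell by 2.99, from 6.09, 6.00 and 6.25 to 3.09, 3.05 and 3.22. miR-669m-3p fell by 2.87 as measured, from 5.66, 5.64 and 5.88 to 2.86, 2.88 and 2.83. On siOCT4-POVPC replicate 1 it lay below the lowest signal well above background (2.95). On the brightest probes the fall of miR-669a-3-3p was 3.26 and that of miR-466g 3.32. Both had 5 of 5 probes called, with median changes of -2.44 and -1.91. The fall was smaller in miR-466f-3p (1.17), miR-466i-3p (0.91) and miR-466m-3p (0.93), whose groups were still apart on every array.

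The imprinted Dlk1-Dio3 region on chromosome 12, a maternally expressed run of many miRNAs, moved in both directions. Of its 10 named members, 2 were lower, 2 were higher, 2 had a single called probe and 4 had none. One of the single-probe members, miR-496b, was listed by name, but RefSeq places it on chromosome 19. The median change over the 44 probes of this list was -0.00, with 9 called lower and 8 higher. Over all named probes the shares were 20% lower and 12.1% higher, and of these the lower share alone was close to that of the list. miR-299a-3p (Mir299a, chr12:109710676-109710697) read 6.45, 5.67 and 6.09 in siNT-POVPC and 0.76, 1.08 and 0.02 in siOCT4-POVPC on its brightest probe, where it was at least 9.54-fold lower (limma adjusted p 5.78e-05). The other probes of miR-299a-3p changed by -1.72 to -0.82. The 5p arm of the same hairpin had none of 5 probes called and a median change of 0.15. miR-495-3p (Mir495, chr12:109718795-109718816) fell by 3.30 as measured on its brightest probe, from 6.02, 5.85 and 5.93 to 2.50, 2.76 and 2.64. On siOCT4-POVPC replicates 1 and 3 it lay below the lowest signal well above background (2.95 and 2.78), so the size of the fall is uncertain. The 16-base and 20-base probes of miR-495-3p changed by 0.73 and -0.01 and were not called.

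In the opposite direction, miR-485-3p (Mir485, chr12:109734946-109734967) had the largest measured rise of the 13 higher miRNAs. Its brightest probe read 1.71, 2.67 and 2.11 in siNT-POVPC, where it was well above background on 1 array, and 7.63, 7.60 and 7.62 in siOCT4-POVPC. It rose by 5.45 (SE 0.23, limma adjusted p 1.21e-05). Its 16-base and 18-base probes, which no siNT-POVPC array showed well above background, were at least 32.4-fold and 33.9-fold higher. The 15-base probe, 1 base shorter than the first of these, changed by -0.11 and was not well above background on those 6 arrays. miR-410-5p (Mir410, chr12:109743729-109743749) rose on all 5 probes, and its brightest went from 3.85, 3.87 and 3.87 to 5.09, 5.00 and 4.99. miR-376a-3p, miR-494-3p and miR-434-3p of the same region had no called probe, with median changes of 0.39, -0.12 and 0.22.

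Higher miRNAs included those of the X-linked cluster near Fmr1, which is known for its expression in the testis. Of 15 probes of its 3 named members, 12 were higher and none was lower, where 12.1% of all named probes were higher. On its brightest probe miR-871-5p (Mir871, chrX:66810472-66810494, minus strand) rose by 4.38 (SE 0.12, limma adjusted p 3.38e-06), from 3.71, 3.95 and 3.93 to 8.19, 8.23 and 8.32. Its 5 probes ranged from 0.90 to 4.38. miR-883b-5p (Mir883b, chrX:66789936-66789957, minus strand) rose evenly, by 1.84 to 2.21 over 5 probes, and its brightest probe went from 2.34, 3.06 and 3.35 to 4.90, 4.71 and 4.66. miR-881-5p had 2 of 5 probes called and a median change of 0.84.

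Among the other higher miRNAs, miR-5616-3p (Mir5616, chr4:149537901-149537922, plus strand) changed most. Its brightest probe read 4.28, 4.44 and 4.30 in siNT-POVPC and 9.25, 9.36 and 9.35 in siOCT4-POVPC, a rise of 4.98 (SE 0.11, limma adjusted p 2.56e-06). All 5 probes were called, but the smallest of the rises was 0.76. The 11-base probe of miR-3076-5p, well above background on the siOCT4-POVPC arrays alone, was at least 15.9-fold higher. The 12-base and 14-base probes of the same miRNA changed by 0.97 and 1.46. miR-12204-5p rose by 1.51 on its brightest probe, from 4.42, 4.32 and 4.56 to 5.96, 5.85 and 6.02. On their brightest probes miR-3086-3p rose by 1.85, miR-5626-3p by 1.94 and miR-7675-5p by 1.25. Their other probes changed less, by 0.24 to 0.98, 0.52 to 0.97 and 0.20 to 1.03, respectively. By the brightest probe alone, the smallest rises in the list were those of miR-6950-5p (0.74), miR-6916-5p (0.73, adjusted p 0.0475) and miR-7670-5p (0.63). The other probes of these miRNAs rose by 0.51 to 1.81, 0.63 to 1.05 and 0.51 to 0.70, respectively. The brightest probe of miR-7670-5p turned to -0.25 with slide as a block.

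miR-27b-3p, a conserved miRNA linked to lipid metabolism and angiogenesis, read 10.69, 10.77 and 10.62 in siNT-POVPC against 10.17, 10.16 and 10.13 in siOCT4-POVPC. Its brightest probe changed by -0.54 (adjusted p 0.0423), under the 1.5-fold threshold, while its 15-, 16- and 17-base probes were called with changes of -0.91, -0.80 and -0.77. The let-7 seed list, tumour suppressor miRNAs abundant in differentiated cells, had 5 named members and 20 probes with none called and a median change of -0.13. One of these probes belongs to let-7d-3p, the opposite arm, which does not carry the seed. The miR-15/16 seed list, which restrains the cell cycle, had 10 probes of 2 members with none called and a median of -0.33. None of the 30 probes of the X-linked miR-322 cluster was called either, with a median of -0.10. miR-146a-5p, which NF-κB induces and which dampens that pathway, read 7.06, 7.40 and 8.91 in siNT-POVPC and 7.02, 7.25 and 7.24 in siOCT4-POVPC. Its change of -0.62 (SE 0.44, adjusted p 0.678) was within the spread of the siNT-POVPC arrays, which replicate 3 widened. Of the pluripotency list, whose miR-302 cluster OCT4 is known to activate in stem cells, miR-302b-5p alone was named, and 1 of its 3 probes was called, at least 3.11-fold lower. The other 2 changed by -0.50 and -0.27.

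Probes of the same miRNA often disagreed. The plot of all probe changes shows miRNAs whose probes moved together, such as miR-883b-5p, beside others whose probes were spread over several log2 units. Between probes of neighbouring length on the same miRNA, the changes differed by 2 or more on the log2 scale in 26 of 410 pairs, which belonged to 21 miRNAs. These differences are as measured, also where a probe was near background. In miR-8118 the 18- and 19-base probes were lower by 3.01 and 3.82 and the 20-base probe was at least 4.21-fold lower, whereas the 21-base probe was higher by 0.77 (adjusted p 0.045).

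**Figure D3:**
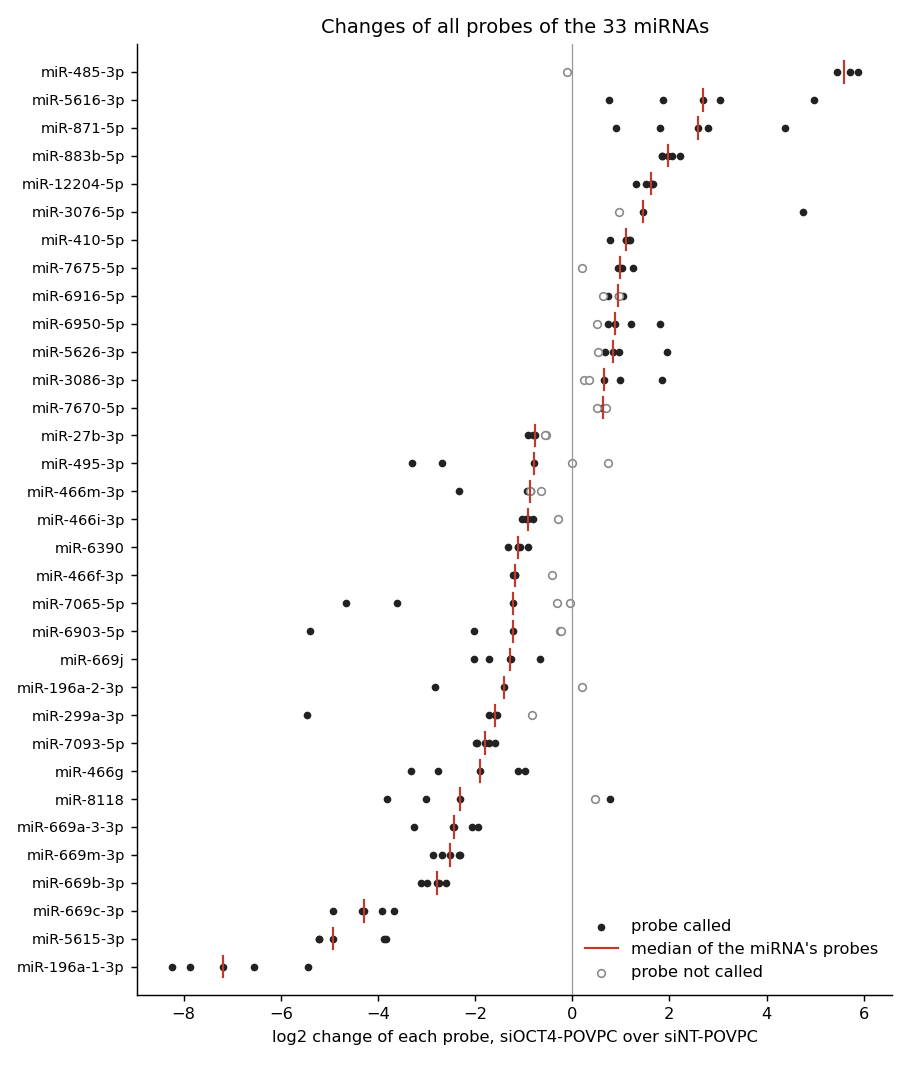
Log2 change in siOCT4-POVPC over siNT-POVPC (x axis) of every probe of the 33 miRNAs (rows), with filled points for called and open points for other probes and a line at the median of each miRNA. Lower miRNAs have medians from -7.19 to -0.77 and higher ones from 0.63 to 5.59, and several rows spread over more than 3 log2 units. Probes not well above background in a group are drawn as measured, and their folds are bounds.

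In 15 miRNAs with at least 4 tested probes a single probe was called, 12 times lower and 3 times higher. The called probe was the shortest of the set in 8, the longest in 3 and between them in 4. The largest of these changes was that of miR-379-3p, also of the Dlk1-Dio3 region. Its probes are shown because the called one differs from the next by a single base at its end, with capitals for the bases beyond the shortest probe.
18-base probe: gagttagtggaccatgtt
19-base probe: gagttagtggaccatgttA
20-base probe: gagttagtggaccatgttAC
21-base probe: gagttagtggaccatgttACA
23-base probe: gagttagtggaccatgttACATA
The 18-base probe read 8.26, 8.14 and 7.71 in siNT-POVPC and 2.84, 2.69 and 2.43 in siOCT4-POVPC, where it was not well above background, and it was at least 37.2-fold lower (limma adjusted p 5.48e-06). The 19-base probe changed by -0.92 (adjusted p 0.16), and the 3 longer ones by between -0.24 and 0.16. The same shape was seen in miR-669l-3p and miR-5618-3p, where the shortest probe was at least 11.9-fold lower and fell by 3.63, respectively, while the longer ones changed by -0.47 to 0.00 and -0.59 to -0.09. In miR-6356 the order was turned, since the longest probe rose by 4.11 while the 4 shorter ones changed by -0.05 to 0.29.

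**Figure D4:**
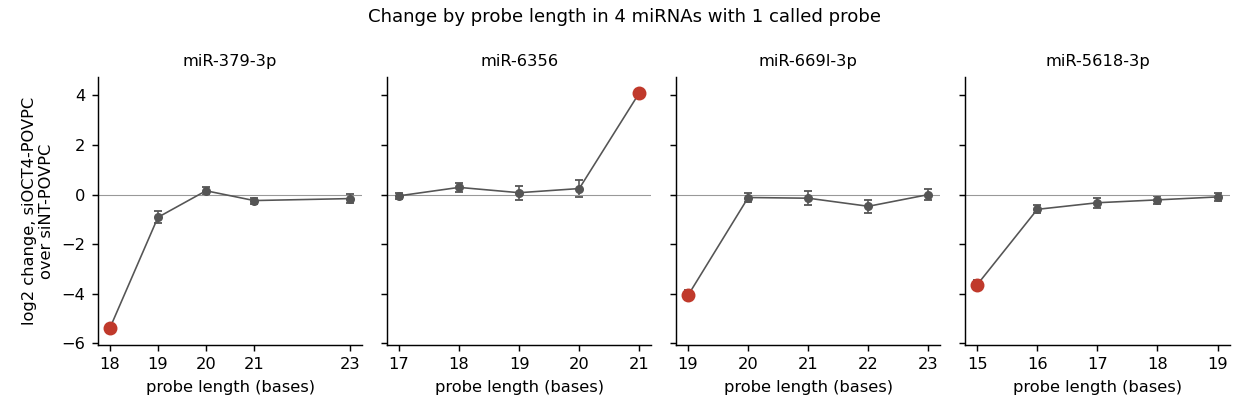
Log2 change in siOCT4-POVPC over siNT-POVPC (y axis, with the limma SE) against probe length in bases (x axis) for the 4 miRNAs with the largest single called probe, which is marked in red. A step of 1 base parts the called probe from its neighbour in all 4 panels, for example 4.11 against 0.24 in miR-6356. The called probes of miR-379-3p and miR-669l-3p were not well above background after knockdown and are drawn as measured, with folds of at least 37.2 and 11.9.

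Probe ends were compared because of this step. The end of a probe pairs with the innermost base it reaches on the miRNA. Of the 21 named probes that ended in ATGT, each from a different miRNA, 18 were called lower and none higher, whereas 20% of all 520 named probes were lower and 12.1% higher. The 21 probes are 4.04% of the 520 and are included in those shares. Their median change was -2.59 as measured. Those not called were probes of miR-302b-5p, miR-30c-5p and miR-669a-3p. Of the 11 probes that ended in TGTT, 8 were lower and none higher. Probes of the Sfmbt2 cluster share sequence and supply many of the ATGT ends, so the 21 are not separate observations. The ends were chosen after the changes had been seen, on the named probes alone, so the counts are a description.

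Within the mature sequences, words of 6 bases were counted on the sense strand as printed. CAAACA occurred in 5 of the 20 lower miRNAs (miR-669b-3p, miR-669m-3p, miR-8118, miR-669j and miR-495-3p), in none of the 13 higher ones, in none of the 51 without a called probe and in 0.298% of 1679 mature mouse miRNAs of RefSeq. Of the 5 carriers, miR-669b-3p, miR-669m-3p and miR-669j were not in RefSeq under that name, so its share leaves them out. UAAACC occurred in miR-299a-3p and miR-7065-5p and in 0.179% of RefSeq miRNAs. The CA repeat CACACA was found in 8 of the lower miRNAs, all on the Sfmbt2 list, and in 3 of the 51 without a called probe. It was also found in 7 of the 26 miRNAs with some probes called. In the higher group, GAUGAG occurred in 4 of 13 (miR-6916-5p, miR-410-5p, miR-12204-5p and miR-5616-3p), in none of the lower or uncalled miRNAs, and in 0.596% of RefSeq miRNAs. CAGUCA occurred in 3 of the 13 and in 0.774% of RefSeq miRNAs. Words overlap each other and family members share them, so they are not separate observations. The words shown were picked by their counts in these same groups, so the counts are a description.

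Pairs of lower miRNAs shared a stretch of 7 or more bases in 32 of 190 cases. Most of these were pairs within the Sfmbt2 cluster, and 7 of 154 remained when pairs of 2 cluster members were set aside. Pairs of higher miRNAs did so in 6 of 78 cases, of which miR-410-5p and miR-5616-3p shared the longest, with 9 bases (UGUGAUGAG). Pairs of a lower and a higher miRNA did so in 7 of 260. No siRNA sequence was compared with these stretches, so the part of the transfected siRNAs in the changes was not tested.

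Among the other small RNAs, whose codes PST and TRF the sources used here do not spell out, 20 of 2006 tested probes were lower (0.997%) and 26 were higher (1.30%). These 46 became 13 with normexp, 9 over probes detected on all 12 arrays, 70 with the methods' t-test unadjusted and 240 with slide as a block, the fit that rests on siOCT4-DMSO replicate 3. The calls fell mainly to PST probes, with 37 of 334 tested called (11.1%) against 9 of 1672 TRF probes (0.538%). The filter for tested probes had kept 334 of 2716 PST probes but 1672 of 1767 TRF probes. A probe bright in 1 group alone could pass that filter. The shares of PST and TRF probes called thus rest on differently filtered sets and do not compare the classes. Many called probes were near background in 1 of the groups, and a bound alone could be given for 14 lower and 16 higher probes. The largest was a rise of the PST probe ASMM10SMR20PST100005441TV1. It read 0.02, 0.02 and 0.68 in siNT-POVPC and 10.09, 10.01 and 10.04 in siOCT4-POVPC, at least 198-fold higher (limma adjusted p 3.26e-06). The next bounds upwards were at least 42.8-fold for ASMM10SMR20PST100002319TV1, 21.6-fold for ASMM10SMR20PST100024965TV1 and 16.4-fold for ASMM10SMR20PST100008369TV1.

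The largest bounds downwards were at least 22.8-fold for ASMM10SMR20PST100002715TV1 and 15.0-fold for ASMM10SMR20PST100001324TV1, followed by 11.3-fold for ASMM10SMR20PST100003694TV1 and 10.2-fold for ASMM10SMR20PST100036807TV1. The first of them read 7.17, 7.37 and 7.45 in siNT-POVPC against 2.53, 2.58 and 2.68. Well above background on all 6 arrays were 4 lower and 7 higher called probes. Of these the largest rise was that of ASMM10SMR20TRF100000336TV1, by 4.56 (SE 0.17, limma adjusted p 5.47e-05), from 3.01, 2.55 and 3.16 to 7.48, 7.53 and 7.40. ASMM10SMR20TRF100000344TV1 rose by 2.80, ASMM10SMR20PST100030477TV1 by 2.18 and ASMM10SMR20TRF100000340TV1 by 1.96. The falls were smaller, with 1.39 for ASMM10SMR20TRF100006618TV1, 1.31 for ASMM10SMR20TRF100006399TV1, 0.93 for ASMM10SMR20PST100034484TV1 and 0.72 for ASMM10SMR20PST100044867TV1.

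Since slide and group cannot be told apart under POVPC, each change was set beside the knockdown change under DMSO within slide 1, where siOCT4-DMSO replicates 1 and 2 were compared with the 3 siNT-DMSO arrays. The 2 comparisons share no array, but they were normalized together. Within slide 1, 77 of 8621 miRNA probes were lower (0.893%) and 49 were higher (0.568%). The brightest probes of all 33 miRNAs had the same sign in both comparisons, and 13 of the 20 lower and 11 of the 13 higher ones were also called within slide 1. The 33 were named through the study's lists of changed miRNAs. These lists cover its own comparison of siOCT4-DMSO with siNT-DMSO, so this agreement is partly fixed in advance. The share of equal signs over all tested probes was not counted. Among the other small RNAs, 45 of the 46 called probes had the same sign. The exception, ASMM10SMR20PST100044867TV1, fell by 0.72 under POVPC and had a difference of 1.18 within slide 1. The median change of the 21 probes ending in ATGT was -1.89 within slide 1, and all 21 were below 0, as were 340 of all 520 named probes, whose median was -0.29.

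Sizes can be set side by side where the brightest probe was well above background on all 11 arrays, which held for 10 of the higher and 12 of the lower miRNAs. These miRNAs were selected by their calls under POVPC, so the sides do not stand on equal terms. The change under POVPC also spans both slides, while that under DMSO lies within slide 1. In this set the higher change was larger under POVPC for 4 of 10. miR-5616-3p rose by 4.98 under POVPC and 5.08 within slide 1 under DMSO, miR-410-5p by 1.16 and 1.18, and miR-871-5p by 4.38 and 3.28. The lower change was larger under POVPC for 10 of 12. miR-5615-3p changed by -5.22 and -3.08, miR-6903-5p by -5.40 and -4.05, and miR-669c-3p by -3.92 and -3.06. The exceptions were miR-466i-3p, with -0.91 and -1.08, and miR-27b-3p, with -0.54 and -0.82. The siOCT4-DMSO arrays of slide 1 differed from each other for miR-5615-3p, which read 5.72 on replicate 1 and 4.24 on replicate 2, and for miR-196a-1-3p, which read 6.04 and 3.55.

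**Figure D5:**
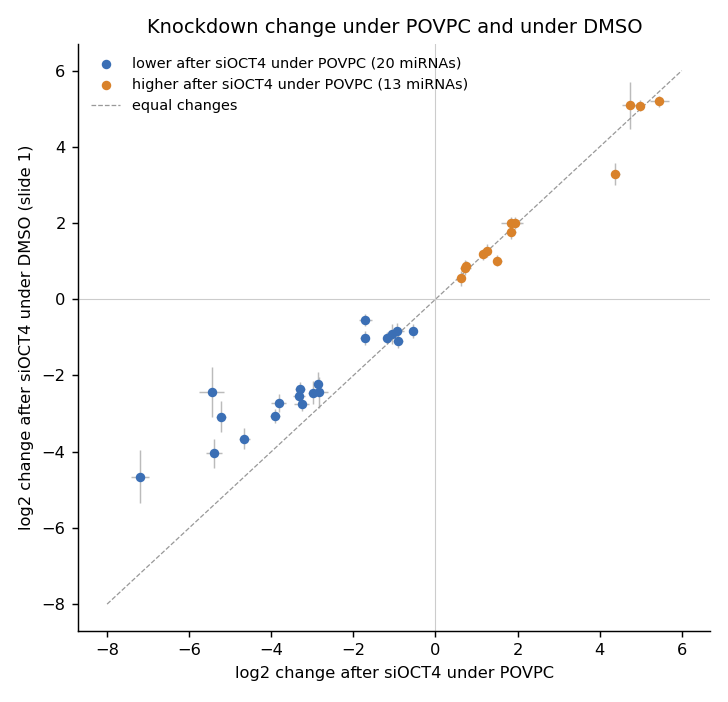
Log2 change of the brightest probe of each of the 33 miRNAs after siOCT4 under POVPC (x axis, 3 against 3 arrays) and under DMSO within slide 1 (y axis, 2 siOCT4-DMSO against 3 siNT-DMSO arrays), with limma SEs as bars. All points lie in the quadrants of equal sign, and 18 of the 20 lower miRNAs lie above the dashed line of equal changes. Probes not well above background in a group are drawn as measured. The miRNAs were selected by their calls under POVPC and named through lists that cover the DMSO comparison.

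Whether the knockdown change differed between POVPC and DMSO was tested as an interaction over all 12 arrays. No miRNA probe passed in limma, with a lowest adjusted p of 0.88, and none of the PST and TRF probes did (lowest adjusted p 0.407). Before adjustment 438 miRNA probes, or 5.08% of those tested, had a p under 0.05, as had 119 of the others. The brightest probes of 11 of the 33 miRNAs were among the 438. The 33 were selected by their change under POVPC, which is part of this difference, so that count is partly fixed in advance. With slide as a block 370 miRNA probes passed, in a fit whose slide term rests on siOCT4-DMSO replicate 3, the array that stood apart. Whether the knockdown change differed between POVPC and DMSO thus depended on how slide was treated.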

How the data were processed

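Small RNA was measured on 12 one-colour arrays, of which 6 enter the main comparison. Per the labels and the study's methods, Cy3-labelled RNA was hybridized to Arraystar mouse small RNA arrays, and the authors extracted spot values with Agilent Feature Extraction 11.0.1.1. The deposited scanner files hold intensity values, of which the background-subtracted processed signal was used. Their series table holds log2 values the authors had quantile-normalized, and it served as an alternative only. Control and outlier spots were left out, spots of a probe were averaged, and signals were quantile-normalized over 12 arrays, raised to 1 where lower, and log2-transformed. Folds of dim probes depend on that floor. Probes well above background on at least 3 arrays were fitted with limma 3.58.1 in R 4.3.3 (lmFit, eBayes, two-sided), separately for miRNA probes and for PST with TRF probes, after a test on simulated data. Groups and replicate numbers came from the source names. With 3 arrays a group, exact permutation tests cannot go below 0.1, so none was run. Members, lists and rules were chosen with earlier results of these data known. Named were the miRNAs with most of at least 3 probes called, the 4 largest with a single called probe of at least 4, and the 4 largest PST or TRF changes of each kind. Names and probe sequences came from the study's supplementary lists by probe identifier, and its fold changes and p-values were not used. Scalings, background correction, filters, floor, fold threshold, adjustment, blocks, left-out arrays and other tests were tried as alternatives. The number of arrays limits the precision.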

Additional observations from a re-analysis of the deposited data

How the results depend on the processing

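The count of called miRNA probes was 230 and stayed within 1.5 times of that under 12 alternatives, among them both other scalings and the deposited series table. It was 50 (38 lower and 12 higher) with normexp background correction and an offset of 50, which compresses dim signals, 149 with the methods' t-test (Benjamini-Hochberg adjusted), and 646 with slide as a block over 12 arrays, where the slide term rests on siOCT4-DMSO replicate 3 alone. The count of PST and TRF probes, 46, was 13 with normexp, 9 over probes detected on all 12 arrays, 70 with the methods' t-test unadjusted and 240 with the slide block. The 33 named miRNAs became 7 with normexp, all of them among the 33, and 20 with the adjusted methods' t-test. The difference between POVPC and DMSO went from 0 to 1 probe with a floor of 8 and to 370 with the slide block. Leaving out 1 array gave 164 to 193 miRNA probes, 41 to 46 others, 23 to 27 named miRNAs and 0 differences. With the replicate block the counts were 170, 36, 25 and 0. Same-numbered arrays did not deviate together (correlations of -0.01, -0.09 and -0.01), so the numbers were not taken as pairs. The mean of each miRNA's probes, an alternative chosen after seeing the data, called 48 miRNAs, including all 33. Among the brightest probes of the 33 miRNAs, 682 values were recomputed. Under the alternatives 447 kept their direction and call, 33 lost the call and 3 gained it, and miR-7670-5p alone turned direction, to -0.25 with the slide block. With an array left out 184 kept their call and 14 lost it. The causes of these differences were not tested. Probes near background in 1 group give only a bound, which limits the folds.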
